A study of Mus musculus with 12 samples.

Results

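Control myocardium is described here from 4 of the 12 arrays of a mouse heart series, those titled as replicates 1 to 4 of the negative control group (NC), called NC1 to NC4 below. Per the labels, the NC mice received vehicle intraperitoneally each day for 5 days, and myocardial tissue was taken at 6 months. The other 8 arrays, 4 of mice made diabetic with streptozotocin (DM) and 4 of such mice infused with angiotensin IV (AngIV), entered only the choice of probe set per gene, and no group was compared with another. A disease state tag calls the NC samples diabetic; the titles, the source names and the series design call them negative controls, and the tag was not used. The design names 4 mice per group, so each array was taken as 1 mouse. Strain, sex and the chamber that was dissected are not given in the sources used here. The genes described are all 19505 that the platform annotation names, each through 1 probe set. No test was made, and each value is given with the spread over the 4 arrays.

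Heart muscle contracts as myosin pulls on actin within the sarcomere, and troponin and tropomyosin on the actin filament let calcium switch that movement on. Calcium enters through L-type channels, is released from the sarcoplasmic reticulum through ryanodine receptors and is pumped back by the calcium ATPase under the control of phospholamban. The work is paid for mainly by mitochondria that oxidise fatty acids. For many of these steps mammals have several related genes, and the heart is known for using a particular member of each family, with some members typical of the atria and others of the ventricles.

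All values are log2 signals from robust multi-array average (RMA) processing. A gene was called above background on an array when its signal exceeded the 95th percentile of that array's 5222 negative control probe sets, called the negative control level here. That level lay at 5.57, 5.55, 5.40 and 5.39 on NC1, NC2, NC3 and NC4, and wherever 4 values are listed below they follow this order. Of the 19505 genes, 5596 (28.7%) were above it on all 4 arrays, 1781 on 1 to 3 arrays and 12128 (62.2%) on none. With the 99th percentile as the level, 866 genes were above it on all 4 arrays. By construction 5% of negative controls exceed the level on any array, and 202 of them (3.87%) did so on all 4. Of the 1324 positive control probe sets, 814 (61.5%) were above it on all 4. The counts per array were 6125, 6123, 6829 and 6848 genes, so NC3 and NC4, which had the lower levels, had more genes above them. Signals of different probe sets also depend on how well their probes bind, so the order of genes given below is an order of probe set signals and not of RNA amounts, and no ratio between genes is given.

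**Figure D1:**
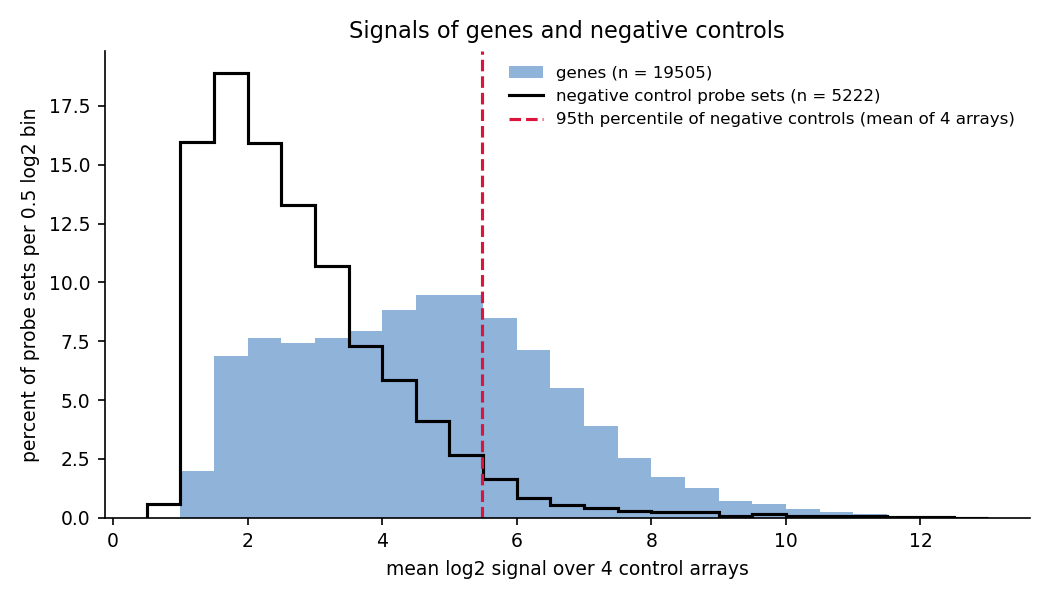
Distribution of the mean log2 signal over the 4 control arrays (horizontal axis, bins of 0.5) for genes and for negative control probe sets, as percent of each kind (vertical axis), with the mean negative control level of 5.48 as a dashed line. Most genes sit to the left of the line, and a tail of 166 genes lies above a mean of 10.

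Gene families of other organs gave a check on this level. Olfactory receptor genes, which work in the nose, were above it on all 4 arrays in 0 of 1091 cases, vomeronasal receptors in 0 of 199 (Vmn1r) and 0 of 120 (Vmn2r), and bitter taste receptors in 0 of 35. Keratin-associated proteins, the structural proteins of hair, were above it in 4 of 50 cases (8.00%), with Krtap17-1 at 7.60, 7.44, 7.30 and 7.03. That share is above the 3.87% of the negative controls, so a signal somewhat above the level on all 4 arrays is no certain sign of RNA. By contrast 39 of 40 Rpl genes and 25 of 32 Rps genes, which encode the proteins of the ribosome, were above it on all 4, as were 44 of 48 Mrpl genes for the large subunit of the mitochondrial ribosome.

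The cardiomyocyte markers bore out the labelled tissue. Of 14 markers, 13 were above the level on all 4 arrays and Nkx2-5 on 3, with values of 5.20, 5.65, 5.56 and 6.09. The mean over the 14 was 10.63, 10.72, 10.77 and 10.86. Since each sample is a piece of tissue, more cells of a type and more RNA per cell cannot be told apart in any value below, and since RMA gives all arrays nearly the same distribution of values, a change in total RNA per sample cannot be seen.

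The 30 genes of highest mean signal were almost all genes of contraction, calcium cycling and mitochondria. Mb, which encodes the oxygen store myoglobin, stood first at 12.18, 12.32, 12.32 and 12.36 (mean 12.29 ± 0.081; SD, n = 4, here and below). Cox7c, a subunit of cytochrome c oxidase, came second at 12.28 ± 0.078, and Fabp3, the heart fatty acid binding protein, came next at 12.15 ± 0.018. The calcium pump Atp2a2 stood at 12.14 ± 0.072 and its inhibitor phospholamban (Pln) at 11.99 ± 0.067. Sarcomere genes held 8 further places: Tpm1, Myh6, Myl2, Tnnt2, Actc1, Tnni3, Tnnc1 and Myl3, with means from 11.32 to 12.01. Myoz2, a Z disc protein that binds calcineurin, lay at 11.42 ± 0.088. Genes of the respiratory chain and ATP synthase took 13 places: Cox7c, Cox6a2, Atp5a1, Atp5b, Atp5h, Ndufa4, Cox6c, Ndufc1, Uqcrb, Atp5g1, Atp5md, Cycs and Uqcrh, from 11.24 to 12.28. The remaining places went to Slc25a4, which exchanges ADP for ATP across the inner mitochondrial membrane (11.69 ± 0.065), Hadhb of the trifunctional enzyme of fatty acid oxidation (11.37 ± 0.095), the iron store ferritin heavy chain Fth1 (11.76 ± 0.018) and the small heat shock protein Cryab (11.27 ± 0.095).

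The order was nearly the same on each array. The 30 brightest genes of each of the 4 arrays had 26 in common and the 100 brightest had 89. For the 30 genes of highest mean, the difference between worst and best rank over the arrays had a median of 3. Between arrays, Pearson's r over the 19505 genes ran from 0.977 to 0.987, lowest between NC2 and NC3; this is a correlation across genes, which are not independent replicates. Only 45 genes had a mean above 11 and 1002 a mean above 8, while the median gene stood at 4.59, below the negative control level.

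To describe which members of a family the heart used, 65 families of related genes were read against the level. Listed genes without a named probe set could not be read, and over all families and lists 668 of 763 genes had one. A member that goes unmentioned may thus be unmeasured. Of the families, 62 had at least 2 measured members. In 20 of these exactly 1 member was above the level on all 4 arrays, in 4 every measured member was, in 1 none was, and in the other 37 some were. Over the families, 150 of 307 measured genes (48.9%) were above the level on all 4 arrays, against 28.7% of all genes; the families were picked for their role in the heart, so the higher share is no finding. At the 99th percentile 71 of them were above the level, and at the 90th percentile 13 families had exactly 1 member above it. Another 39 were above it on 1 to 3 arrays and 118 on none.

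Of the 13 myosin heavy chains, the motors of the thick filament and of nonmuscle cells, 5 were above the level on all 4 arrays. Myh6 (alpha) stood at 11.74, 11.85, 11.92 and 11.85 and Myh7 (beta) at 10.27, 9.75, 10.22 and 10.01. Both were above the level on every array, and Myh7 was lowest on NC2. Myh7b lay at 6.52 ± 0.15. The skeletal muscle and developmental chains Myh1, Myh2, Myh3, Myh4, Myh8 and Myh13 were above the level on no array, with means from 3.03 to 5.08. Among the nonmuscle chains, Myh9 (7.43 ± 0.24) and Myh14 (5.98 ± 0.093) were above it on all 4, and Myh10 on 2. Smooth muscle myosin, Myh11, was above it on NC1 and NC4 only, at 7.13, 4.85, 5.37 and 5.71.

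The myosin light chains differed in how even their signals were. The ventricular regulatory chain Myl2 read 11.78, 11.71, 11.77 and 11.90 and the ventricular essential chain Myl3 11.19, 11.32, 11.31 and 11.45, a range of 0.19 and 0.26. Their atrial counterparts did not hold such a level: Myl7 read 10.08, 4.28, 7.90 and 3.72 and Myl4 9.99, 6.02, 8.35 and 5.80. NC1 was the highest and NC3 the next for both atrial chains, while NC2 and NC4 had Myl7 below the level. Myl12a (10.10 ± 0.11) and Myl12b (8.13 ± 0.041) of nonmuscle cells, Myl6 (8.02 ± 0.31) and the fast chain Myl1 (7.78 ± 0.16) were above the level on all 4 arrays, and so was Myl9, the smooth muscle regulatory chain, at 7.57, 5.60, 6.29 and 6.22, highest on NC1. The skeletal chain Mylpf, Myl10 and Myl6b were above it on none.

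Of the 5 measured actins, 4 were above the level on all 4 arrays. Cardiac actin Actc1 had values of 11.35, 11.54, 11.51 and 11.64. Skeletal actin Acta1 had values of 9.03, 7.92, 8.13 and 9.04, with NC1 and NC4 about 1 unit above NC2 and NC3. Smooth muscle actin Acta2 stood at 9.99, 7.99, 8.15 and 8.29, with NC1 apart from the other 3 arrays. Cytoplasmic Actb lay at 10.19 ± 0.15, and Actg2 of enteric smooth muscle was above the level on no array.

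The stretches of 250 bases before the RefSeq transcription starts (GRCm38.p6) of these 3 striated and smooth muscle actins and of Myl7 are shown because their signals differed in evenness, with an SD of 0.12 for Actc1, 0.59 for Acta1, 0.93 for Acta2 and 3.03 for Myl7. Each is written 5′ to 3′ on the gene's own strand, which is the minus strand for all 4. Capitals mark a full match to CCWWWWWWGG, where W is A or T. This is the strict form of the CArG box, the element bound by serum response factor. Boxes with a mismatch to that pattern were neither marked nor counted.
Actc1 (chr2:114052876-114053125, minus strand): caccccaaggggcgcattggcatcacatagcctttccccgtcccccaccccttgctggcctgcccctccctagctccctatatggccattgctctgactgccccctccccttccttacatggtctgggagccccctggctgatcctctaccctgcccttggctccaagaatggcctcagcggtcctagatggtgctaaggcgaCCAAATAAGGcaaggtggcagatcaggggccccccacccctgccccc
Acta1 (chr8:123894776-123895025, minus strand): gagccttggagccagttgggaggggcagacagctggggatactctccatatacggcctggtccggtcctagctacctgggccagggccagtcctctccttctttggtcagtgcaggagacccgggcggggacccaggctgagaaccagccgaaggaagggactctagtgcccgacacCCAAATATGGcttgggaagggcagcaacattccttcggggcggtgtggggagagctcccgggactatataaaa
Acta2 (chr19:34255374-34255623, minus strand): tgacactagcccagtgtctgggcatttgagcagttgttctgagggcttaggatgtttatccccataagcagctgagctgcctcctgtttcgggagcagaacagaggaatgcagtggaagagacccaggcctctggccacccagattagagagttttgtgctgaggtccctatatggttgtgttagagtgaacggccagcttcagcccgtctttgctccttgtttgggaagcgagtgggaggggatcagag
Myl7 (chr11:5898783-5899032, minus strand): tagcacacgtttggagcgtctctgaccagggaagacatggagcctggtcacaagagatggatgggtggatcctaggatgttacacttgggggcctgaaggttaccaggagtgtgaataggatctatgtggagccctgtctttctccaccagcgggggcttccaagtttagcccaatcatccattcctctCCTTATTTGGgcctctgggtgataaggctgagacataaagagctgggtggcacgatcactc
The marked CArG box starts 47 bases before the transcription start in Actc1, 73 bases before it in Acta1 and 61 bases before it in Myl7. No full match was found in the window of Acta2. That window holds ccctatatgg and ccttgtttgg, which each differ from the pattern in a single letter. Such stretches also lie in the window of Actc1 (ccctatatgg and ccaagaatgg) and in that of Acta1 (ccatatacgg and ccttctttgg). The absence of a full match is thus no sign that Acta2 lacks a CArG box. Both strands were searched. Of all 27025 genes with a RefSeq promoter, 1.62% held a CArG box in such a window, against 1.79% of the 4592 genes above the level on all 4 arrays that had a window and 1.5% of the 9672 above it on none. Of the 32 genes of the cardiomyocyte and sarcomere lists with a window, 7 (21.9%) held one: Actc1, Fhl1, Fhl2, Ldb3, Myl3, Myom1 and Nebl. The letters TATAAA were present in 14.3% of all genes with a promoter, in 8.49% of the genes above the level on all 4 arrays and in 16.5% of those above it on none. A match is a description of the letters and not a sign of binding.

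Among the thin filament regulators, troponin I and C each had 1 member above the level on all 4 arrays. Troponin T had 2 of 3 and the tropomyosins 4 of 4. Troponin T was represented by Tnnt2 (11.72 ± 0.067) and the slow skeletal Tnnt1 (6.36 ± 0.25), while fast skeletal Tnnt3 was above the level on no array. Troponin I was represented by Tnni3 (11.44 ± 0.037); Tnni1, the form of the fetal heart, lay at 3.13 ± 0.34, below the level on every array. Troponin C was represented by Tnnc1 (11.35 ± 0.077), with fast skeletal Tnnc2 above the level on none. All 4 tropomyosins were above it on all arrays: Tpm1 at 12.01 ± 0.064, Tpm2 at 6.30 ± 0.42, Tpm3 at 7.16 ± 0.17 and Tpm4 at 7.59 ± 0.15. Mybpc3, the cardiac myosin-binding protein C, stood at 10.30 ± 0.20, and its skeletal relatives Mybpc1 and Mybpc2 and Mybph were above the level on none. The related gene Mybphl had values of 6.29, 3.21, 3.86 and 2.96, above the level on NC1 alone.

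Of the 30 measured structural genes of the Z disc and M band, 25 (83.3%) were above the level on all 4 arrays, Myoz2 among them. Over all genes that share was 28.7%. Titin (Ttn) stood at 10.46 ± 0.089, and desmin (Des), the intermediate filament that ties Z discs together, at 9.80 ± 0.10. Alpha-actinin 2 (Actn2), which crosslinks actin at the Z disc and was read in the actinin family, stood at 10.55 ± 0.087. The calcium-store proteins of that list, Hrc, Trdn, Asph and Srl, had means from 9.09 to 10.32. Further members above the level were Myom1, Myom2, Nebl, Nrap, Ldb3, Tcap, Pdlim5, Synpo2l, Xirp1, Xirp2, Ablim1, Fhl2, Smpx, Cmya5 and Sorbs2, from 7.11 (Synpo2l) to 10.86 (Fhl2). Nebulin (Neb), the thin filament ruler of skeletal muscle, lay below the level at 4.18 ± 0.23, whereas its cardiac relative nebulette (Nebl) stood at 9.31 ± 0.20. Myom3, Myoz1 and Myoz3 were also above the level on no array and Flnc, filamin C, on 3. Of the list, 3 genes had a range over 1 log2 unit: Myot (myotilin, 8.78, 7.57, 8.44 and 8.80), Fhl1 (8.12, 7.01, 7.83 and 7.93) and Pdlim3 (6.87, 5.87, 6.46 and 5.91). Myot and Fhl1 were lowest on NC2, and Pdlim3 was highest on NC1 with NC3 next.

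Other muscle families differed in how many members were above the level. All 3 LIM proteins were: Csrp3, the cardiac form, at 10.69 ± 0.088, Csrp1 at 6.45 ± 0.38 and Csrp2 at 7.70, 6.40, 6.58 and 6.30, highest on NC1. The ankyrin repeat proteins Ankrd1 (9.91 ± 0.39) and Ankrd23 (8.98 ± 0.29) were above the level and Ankrd2 was not. The filament-end proteins Lmod2, Lmod3, Tmod1, Tmod3 and Tmod4 had means from 6.82 to 9.86. The second nonmuscle actinin, Actn4, stood at 7.07 ± 0.14, Actn3 of fast skeletal muscle was above the level on none, and Actn1 had 6.25, 5.00, 5.30 and 5.29, above it on NC1 alone.

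Membrane and adhesion families had several members above the level. Of 7 caveolins and cavins, which form the small pits of the surface membrane, 5 were above it on all 4 arrays: the muscle form Cav3 (6.92 ± 0.066), Cavin1 (7.62 ± 0.15), Cavin2 (7.04 ± 0.17), Cavin3 (6.90 ± 0.20) and the muscle form Cavin4 (7.99 ± 0.24). Cav1 and Cav2 were above it on 2 arrays each. Of 10 measured integrin subunits, the receptors that tie cells to matrix, 6 were above it, with Itgb1 at 9.34 ± 0.073, its muscle partner Itga7 at 7.36 ± 0.13, and Itga6, Itga9, Itgb5 and Itgb6 from 6.21 to 7.11. Among the laminin alpha chains of the basement membrane Lama2 (7.51 ± 0.086) and Lama4 (7.50 ± 0.059) were above it, 2 of 5. Of 6 measured globins Mb and cytoglobin (Cygb, 7.32 ± 0.15) were above it, and the embryonic Hbb-bh1 had 2.61, 3.49, 2.29 and 3.15, below it on every array.

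**Figure D2:**
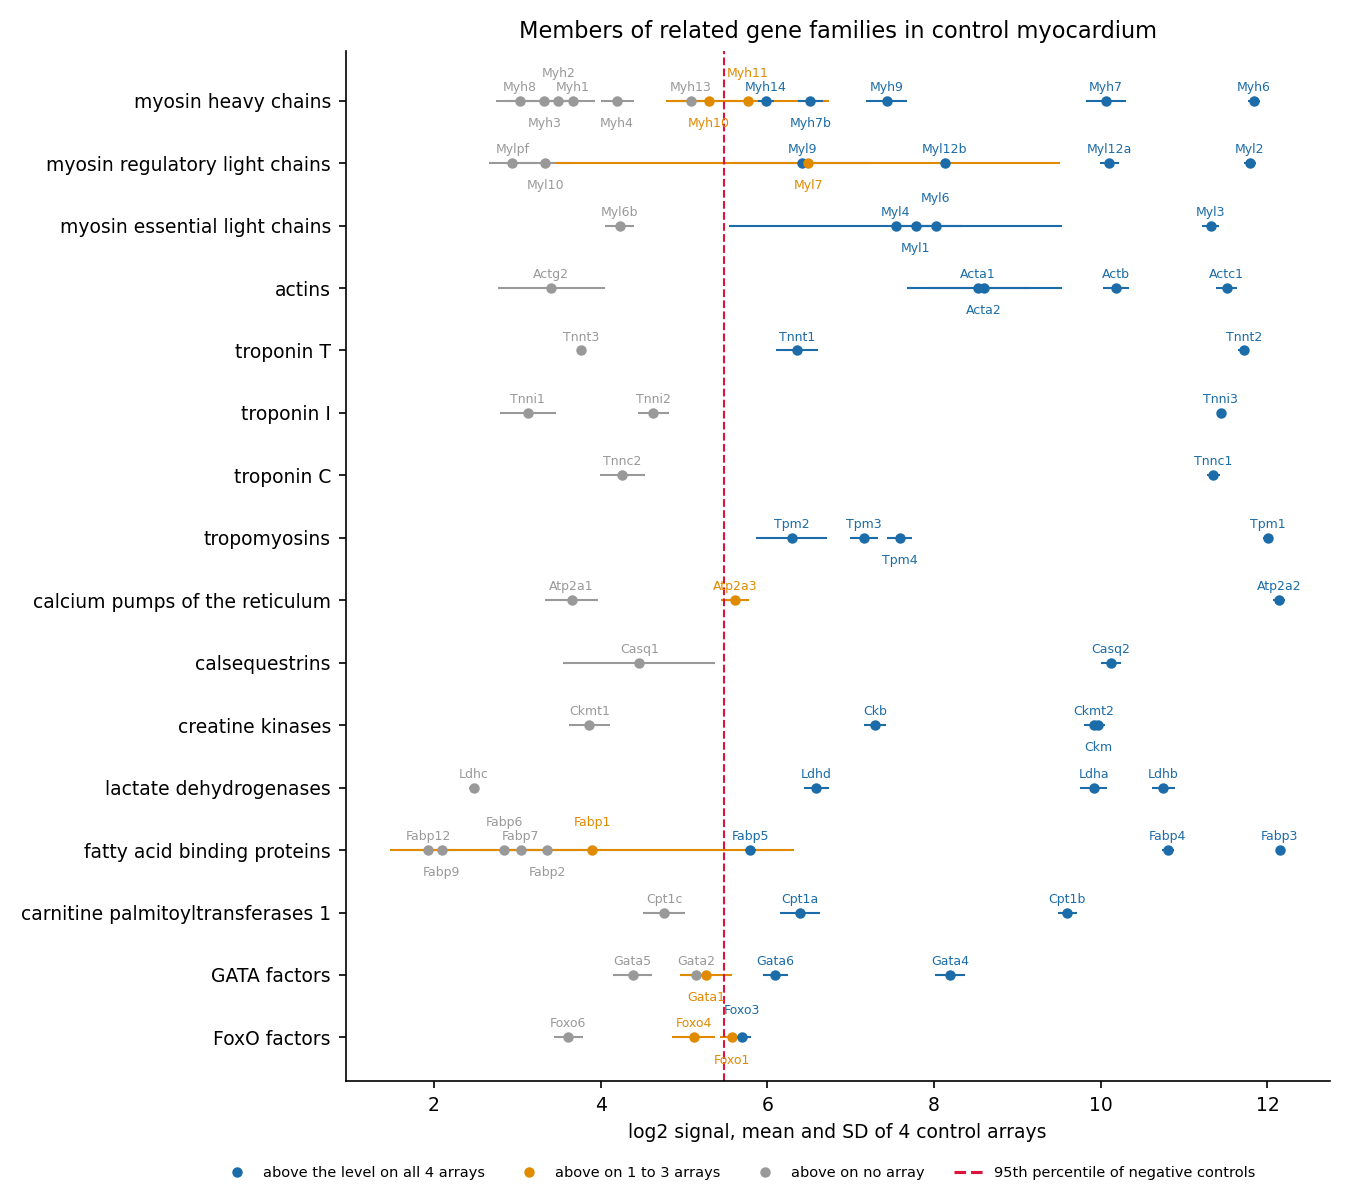
Mean log2 signal and SD over the 4 control arrays (horizontal axis; points and bars) of the members of 16 gene families (rows); blue points are genes above the negative control level on all 4 arrays, orange on 1 to 3 and grey on none, and the dashed line is the mean level of 5.48. In the troponin I, troponin C, calcium pump and calsequestrin rows 1 blue point stands apart from the rest.

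In most calcium-cycling families 1 member was above the level on all 4 arrays. Atp2a2, the pump of heart and slow muscle, had 12.04, 12.14, 12.19 and 12.19; the fast muscle pump Atp2a1 lay at 3.65 ± 0.32, above the level on none, and Atp2a3 on 3 arrays at 5.61 ± 0.17. Phospholamban had 11.90, 12.06, 11.98 and 12.01, while the atrial pump regulator sarcolipin (Sln) had 9.35, 5.34, 7.32 and 5.16, above the level on NC1 and NC3 only. Ryr2, the cardiac release channel, stood at 9.52 ± 0.085 and skeletal Ryr1 below the level at 2.78 ± 0.21. The calcium buffer Casq2 stood at 10.12 ± 0.12; its skeletal relative Casq1, above the level on no array, had 5.43, 3.47, 5.01 and 3.95. The sodium-calcium exchanger Slc8a1 stood at 8.78 ± 0.090, and Slc8a2 and Slc8a3 were above the level on none. Of the junctophilins, which hold the reticulum to the surface membrane, Jph2 stood at 7.93 ± 0.13 and Jph4 at 6.23 ± 0.25. Itpr2, the measured inositol trisphosphate receptor, stood at 6.48 ± 0.16.

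Of 90 genes with a Kcn symbol, the potassium channel genes, 12 (13.3%) were above the level on all 4 arrays, against 28.7% of all genes. The L-type calcium channel pore Cacna1c stood at 8.99 ± 0.068 and its beta subunit Cacnb2 at 7.95 ± 0.28. Of the other calcium channel pores only the T-type Cacna1h (5.85 ± 0.17) was above the level on all 4. The inward rectifiers Kcnj3 (7.31 ± 0.22) and Kcnj5 (7.05 ± 0.17), which form the acetylcholine-activated channel, Kcnj11 (7.36 ± 0.088) of the ATP-sensitive channel and Kcnj12 (6.23 ± 0.19) were above it. Kcnj2, the classical inward rectifier of ventricular muscle, lay below it on every array, at 4.90, 5.26, 5.27 and 4.93. The transient outward channel was represented by Kcnd2 (6.55 ± 0.38) and its partner Kcnip2 (8.12 ± 0.19), and Kcnd3 was above the level on NC4 alone. Among the measured sodium channel pores only Scn7a (6.41 ± 0.20) was above the level on all 4. The pacemaker channels Hcn2, Hcn3 and Hcn4 were above the level on no array, with means from 1.61 to 4.44. Gja1, the gap junction protein that couples ventricular cells, stood at 10.06 ± 0.11 and Gjc1 at 5.78 ± 0.088, while Gja5 of the atria and conduction system lay at 4.79, 4.72, 4.61 and 4.44, below the level. The pump regulator Fxyd1 (phospholemman) stood at 10.12 ± 0.16 and Fxyd6 at 7.21 ± 0.16, and Fxyd2 had 5.17, 5.46, 5.61 and 6.39, above the level on NC3 and NC4.

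Receptors of the nervous and angiotensin systems each had a main member above the level. Chrm2, the muscarinic receptor of the heart, stood at 6.81 ± 0.21 and the other 4 measured muscarinic receptors were above the level on none. Only 2 of 6 listed alpha-adrenergic receptors were measured, and of these Adra1b was above the level (6.72 ± 0.27). Adcy6 was the adenylyl cyclase above it on all 4 arrays (7.85 ± 0.14), with Adcy5 above it on 3 arrays. The angiotensin II receptor Agtr1a had 7.19, 7.55, 7.38 and 7.50, whereas Agtr1b and Agtr2 were above the level on no array. Ace (6.50 ± 0.29) and Anpep (5.91 ± 0.32), 2 of the peptidases that form and trim angiotensin peptides, were above it on all 4; Enpep and Mas1, which encodes a receptor for angiotensin 1-7, were above it on none.

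Genes of mitochondrial energy supply filled much of the top of the order. Of the 87 genes of the respiratory chain and ATP synthase found by symbol, 83 (95.4%) were above the level on all 4 arrays, with a median of 10.03, and 36 were among the 100 brightest genes and 60 among the 300 brightest. Their median SD was 0.078, against 0.14 for all genes above the level on all 4 arrays. By band of mean signal the median SD was 0.11 from 9 to 10, 0.092 for the 121 genes from 10 to 11 and 0.077 above 11. These bands include respiratory chain genes, whose own means ran from 2.32 (Cox7b2) to 12.28 (Cox7c), so the sets are not matched in brightness. The 4 others were tissue-specific isoforms: Cox4i2 was above the level on 3 arrays, and Cox6b2, Cox7b2 and Cox8c, known from testis, on none. Where cytochrome c oxidase has muscle and general forms, both were above it: Cox6a2 at 11.89 ± 0.12 and Cox6a1 at 8.81 ± 0.11, Cox7a1 at 11.19 ± 0.096 and Cox7a2 at 10.30 ± 0.094, Cox8b at 10.85 ± 0.017 and Cox8a at 9.73 ± 0.17. Cox4i1 (10.92 ± 0.060), Cox6b1 (10.89 ± 0.032) and Cox7b (11.20 ± 0.066) were above it as well. All 18 measured genes of the tricarboxylic acid cycle were above the level, from 6.38 (Sucla2) to 11.13 (Idh2), among them citrate synthase (Cs) at 10.29 ± 0.13 and Mdh1 at 11.08 ± 0.083. The members Idh3a, Idh3b, Idh3g, Ogdh, Dlst, Dld, Suclg1, Suclg2, Sdhb, Sdhc and Sdhd, with fumarase (Fh1) and Mdh2, had means from 7.85 (Dlst) to 10.78 (Sdhb). Of the carriers that exchange ADP and ATP, Slc25a5 stood at 9.59 ± 0.13 beside Slc25a4.

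All 21 measured genes of fatty acid uptake and oxidation were above the level on all 4 arrays. Fabp3 had 12.14, 12.14, 12.17 and 12.13 and the fatty acid transporter Cd36 10.45, 10.45, 10.46 and 10.48; both belonged to the steadiest genes of the heart. Lipoprotein lipase (Lpl), which frees fatty acids from lipoproteins, stood at 11.12 ± 0.11. Of the carnitine palmitoyltransferases that admit fatty acids to mitochondria, the muscle form Cpt1b stood at 9.60 ± 0.11, the liver form Cpt1a at 6.39 ± 0.24, and the brain form Cpt1c was above the level on none. The other members named Slc25a20, Cpt2, Slc27a1, Acadvl, Acadl, Acadm, Acads, Hadha, Hadh, Echs1, Acaa2, Eci1, Eci2, Decr1, Etfa and Etfdh lay between 7.88 (Cpt2) and 11.13 (Hadha). Fabp4, of fat cells and capillary endothelium, stood at 10.81 ± 0.070 and Fabp5 at 5.80 ± 0.068. The liver form Fabp1 had 2.31, 1.80, 7.13 and 4.36, above the level on NC3 alone, and the intestinal form Fabp2 had a mean of 3.36 ± 0.49, below it on every array. Of 5 listed long-chain acyl-CoA synthetases only 3 were measured. Of these Acsl4 was above the level on all 4 arrays at 5.63 ± 0.13, and Acsl5, at 5.38 ± 0.43, was above it on NC3 and NC4 only. Acacb, the mitochondrial acetyl-CoA carboxylase, stood at 7.33 ± 0.038, and Acaca of lipid synthesis was above the level on none. Pdk4, which restrains glucose oxidation in fasting, had 8.03, 8.44, 8.36 and 7.32, lowest on NC4, and Ucp3 had 6.43, 7.14, 7.07 and 5.98, also lowest on NC4. Pdk1 (8.67 ± 0.10) and Pdk2 (9.75 ± 0.18) had ranges under 0.5.

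In glucose metabolism the muscle forms were above the level, with general forms beside them. Slc2a4, the insulin-responsive transporter, stood at 8.00 ± 0.11 and Slc2a1 at 6.60 ± 0.12; Slc2a2, of liver and pancreas, had 3.66, 3.53, 6.34 and 4.10, above the level on NC3 alone. Hexokinases Hk1 (8.69 ± 0.079) and Hk2 (7.87 ± 0.26) were above it and Hk3 was not. All 3 phosphofructokinases were above it, with Pfkm at 9.90 ± 0.15, Pfkl at 7.22 ± 0.25 and Pfkp at 5.99 ± 0.15. Aldoa (10.87 ± 0.082), Eno3 (9.50 ± 0.21) and Pkm (10.31 ± 0.11) were the members above the level of their families. Pgam2 stood at 9.70 ± 0.13 and Pgam1 at 6.16 ± 0.12, and of the glycogen phosphorylases Pygm stood at 10.81 ± 0.089, Pygb at 9.23 ± 0.065 and the liver form Pygl below the level. Both Ldhb (10.75 ± 0.14) and Ldha (9.91 ± 0.16) were bright, and Ldhd stood at 6.59 ± 0.15. The creatine kinases Ckm (9.97 ± 0.081), Ckmt2 of mitochondria (9.92 ± 0.12) and Ckb (7.29 ± 0.13) were above the level and Ckmt1 was not. Of the energy sensor AMP-activated kinase, Prkaa2 stood at 8.52 ± 0.24, Prkab2 at 6.04 ± 0.23 and Prkag1 at 8.44 ± 0.12, with Prkag2 and Prkag3 also above the level and Prkaa1 above it on 3 arrays.

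Some cardiac transcription factors were above the level on all 4 arrays, at moderate signals. The counts were 2 of 5 measured GATA factors and 3 of 4 MEF2 factors. T-box factors had 2 of 6 and NK2 and HAND factors 2 of 6, a share (33.3%) near the 28.7% of all genes. Nkx2-5, given with the cardiomyocyte markers, was not above the level on NC1. Gata4 (8.19 ± 0.18) and Gata6 (6.10 ± 0.15) were above it on all 4 arrays and the blood cell factor Gata1 on NC2 alone. Mef2a (8.83 ± 0.13), Mef2d (7.68 ± 0.088) and Mef2c (7.62 ± 0.13) were above it, and Mef2b on none. Tbx20 stood at 8.40 ± 0.086 and Tbx5 at 5.89 ± 0.10, Hand2 at 6.19 ± 0.069 and Nkx2-6 at 5.81 ± 0.27, and Hand1, of the early left ventricle, was above the level on none. Ppargc1a, a coactivator of mitochondrial genes, stood at 8.96 ± 0.24, with Ppargc1b, Ppara and Esrrg from 6.29 to 7.09. Of the FoxO factors, on which the series title bears, Foxo3 was above the level on all 4 arrays at 5.74, 5.77, 5.54 and 5.73. Foxo1 was above it on NC1, NC3 and NC4, at 5.74, 5.51, 5.41 and 5.66, with NC2 just below. Foxo4 was above it on NC3 alone and Foxo6 on none. All FoxO signals thus lay close to or below the level, where an array resolves little.

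Autophagy genes, also named by the series title, were above the level on all 4 arrays in 22 of 29 measured cases (75.9%), against 28.7% of all genes, and in 7 with the 99th percentile as the level. The brightest were Gabarap (9.59 ± 0.048), Map1lc3a (9.47 ± 0.096), Lamp2 (9.31 ± 0.13), Lamp1 (9.26 ± 0.079), the cargo receptor Sqstm1 (9.24 ± 0.097), the mitophagy receptor Bnip3 (8.70 ± 0.13) and Map1lc3b (8.64 ± 0.065). Becn1, Gabarapl1, Gabarapl2, Atg3, Atg5, Atg7, Atg9a, Atg12, Ulk2, Rb1cc1, Wipi1, Wipi2, Tfeb, Bnip3l and Fundc1 lay between 5.94 (Atg7) and 7.86 (Gabarapl1). Ulk1, the kinase that starts autophagy, was above the level on NC3 alone at 4.99, 5.17, 5.42 and 5.05, Atg4b on 3 arrays, and Atg2a, Atg13, Atg14, Atg16l1 and Pik3c3 on none. No gene of the list had a range over 1 between the arrays.

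Of the measured immediate early, clock and heat shock genes, 50%, 50% and 75% were above the level on all 4 arrays. The share of all genes was 28.7%. Among stress, immediate early and clock genes a few differed between the mice. Nr4a1 and Nr4a3, rapidly induced nuclear receptors, had 5.99, 7.54, 6.41 and 6.67 and 5.14, 6.84, 6.27 and 6.06, both highest on NC2 and lowest on NC1. Of the 24 immediate early genes 12 were above the level on all 4 arrays, with Dusp1 the brightest at 8.26 ± 0.032 and also Jun, Junb, Jund, Fosl1, Fosl2, Egr1, Egr3, Btg2, Ier3 and Klf6, from 5.78 to 7.29. Egr3 has more than 1 probe set, and the mean over them was 4.94, below the level. Fos lay below the level at 4.02, 4.77, 4.36 and 4.66, as did Nr4a2 at 3.35, 4.36, 3.95 and 3.90. The clock output Dbp had 7.82, 8.17, 8.58 and 8.77 and the repressor Nr1d1 6.74, 7.77, 7.12 and 7.35. NC2 was highest for Nr1d1 and NC4 for Dbp, and the times of day of sampling are not given in the sources used here. Arntl, Clock, Cry2, Nr1d2, Rora, Bhlhe40 and Bhlhe41 were the other clock genes above the level on all 4, from 5.78 to 7.81, 9 of 18 in all; averaged over its probe sets Rora lay at 5.40, below the mean level of 5.48. With the 99th percentile as the level 1 immediate early gene and 0 clock genes were above it. Ciart, a clock repressor, was below the level on every array and highest on NC4, at 4.16, 3.76, 3.89 and 5.37. Among heat shock genes 9 of 12 were above the level on all 4, with the reticulum chaperone Hspa5 at 10.41 ± 0.14, Hspd1 at 9.36 ± 0.19, Hspe1 at 8.21 ± 0.16, and Bag3, Hsp90aa1, Hspa4l, Chordc1 and Hspb1 below them. Dnajb1 had 5.28, 5.17, 6.68 and 6.13 and Hsph1 5.91, 5.82, 6.38 and 6.89, both higher on NC3 and NC4 than on NC1 and NC2. The small heat shock proteins Hspb7 (10.26 ± 0.20), Hspb6 (10.20 ± 0.14), Hspb8 (9.10 ± 0.21) and Hspb2 (7.03 ± 0.14) were also above it. Values of Hspa1a and Hspa1b, near-identical genes, are uncertain, since probes may bind both.

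Of 14 measured genes that hearts are known to raise under load or injury, 9 (64.3%) were above the level on all 4 arrays of these controls, 2 on some and 3 on none. Over all genes 28.7% were above it on all 4 arrays, and 3.38% had a range over 1. Among the 9, Myh7, Acta1 and Ankrd1 are given above, and 6 of the 14 had a range over 1. Atrial natriuretic peptide (Nppa) had 10.29, 8.70, 8.79 and 8.34, with NC1 more than 1 unit above the other arrays, and brain natriuretic peptide (Nppb) 8.49, 7.93, 7.97 and 9.44, with NC4 highest. Nppc was above the level on none. Mt1, a metallothionein, held 9.69, 9.87, 9.71 and 9.72, whereas its neighbour Mt2 had 8.94, 8.03, 8.03 and 7.70, highest on NC1. Ccn2, a matrix-associated growth factor, stood at 7.22 ± 0.26 and Hmox1 at 5.89 ± 0.20, and Ccl2, an attractant of monocytes, had 4.37, 5.36, 4.88 and 5.45, above the level on NC4 alone. Lcn2, a secreted iron carrier, had 3.66, 3.58, 2.61 and 3.62, below the level on every array, as were Timp1 and Il6.

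The other cell types of the heart were read from marker lists. Their counts stand beside the 28.7% of all genes that were above the level on all 4 arrays. Endothelial markers were above the level on all 4 arrays in 11 of 13 cases: Fabp4, Cdh5, Eng, Kdr, Emcn, Pecam1, Flt1, Esam, Vwf, Tie1 and Cldn5, with Cdh5 (VE-cadherin) at 8.31 ± 0.10. Tek was above it on 3 arrays and Robo4 on none. Fibroblast and matrix markers were above it in 11 of 13 cases, led by the proteoglycan decorin (Dcn, 10.96 ± 0.16) and gelsolin (Gsn, 10.03 ± 0.25), with Dpt, Mmp2, Col3a1, Fbln1, Col1a2, Col1a1 and Pcolce from 6.30 to 8.89. Lum and Postn differed by over 1 unit, with Postn at 7.76, 5.82, 6.80 and 6.41 and Lum at 7.98, 6.67, 7.53 and 7.38, both highest on NC1 and lowest on NC2. Macrophage markers were above the level in 7 of 13 cases: Lyz2 (8.16 ± 0.093), C1qa (6.72 ± 0.096), C1qb, C1qc, Csf1r, Mrc1 and Folr2, from 5.85 to 8.16, while Adgre1, Cd163 and Cx3cr1 were above it on none. Of 6 lymphatic endothelial markers Lyve1, Prox1 and Ccl21a were above it, and of 6 endocardial markers Npr3 and Nfatc1, a share (33.3%) near the 28.7% of all genes. With the 99th percentile as the level these counts fell to 3 endothelial, 3 fibroblast, 0 macrophage, 0 lymphatic and 0 endocardial markers.

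Markers of 8 other cell types or states were above the level on all 4 arrays in 0 cases: neutrophils (9 measured), T and NK cells (10), B cells (7), mast cells (8), neurons and Schwann cells (10), mesothelium and epicardium (9), the conduction system (8) and proliferation (11). Of these lists only Etv1 of the conduction list was above it on 1 array and Birc5 of the proliferation list on 3. Some members below the level still had a range over 1, namely S100a8 of neutrophils, Cdk1 of the cell cycle and, from the platelet and lung lists, Ppbp and Scgb1a1, with means from 1.96 to 2.89. Signals below the level do not show that the cells were absent, since a rare cell type adds little to the RNA of a whole tissue piece. Skeletal muscle markers were above the level in 2 of 16 cases, Acta1 and Ckm, which heart muscle also uses, and Myh1, Myh2, Myh4, Mylpf, Tnnt3, Tnni2 and Myod1 were below it on every array. Of 8 adipocyte markers Fabp4 and Plin4 were above it, and of 5 brown adipocyte markers Cidea and Ppargc1a. Over all genes 28.7% were above the level on all 4 arrays and 3.38% had a range over 1. The adipocyte list was uneven, with means of 5.32, 4.55, 5.13 and 5.43, lowest on NC2, and 4 of its 8 genes had a range over 1. These were Car3, an enzyme of fat and slow muscle (5.28, 2.71, 7.07 and 6.13), Adipoq (4.48, 3.08, 3.44 and 4.43), Cidec (4.55, 3.30, 3.76 and 4.49) and Retn (3.67, 3.21, 3.32 and 4.57), all 4 lowest on NC2, and Car3 alone was above the level on any array. Car3 had the widest range of these, 4.36, and so weighed most in the uneven list means. Its order of arrays, with NC3 highest, was that of albumin given below. Adipoq, Cidec and Retn were instead lower on NC3 than on NC1 and NC4. Ucp1 and Elovl3 of brown fat were below it on every array, Elovl3 with 3.28, 3.04, 5.11 and 3.27. The lung and thymus list had 0 of 8 above it on any array. Of the blood markers, Slc4a1 of red cells (6.06 ± 0.19) and Pf4 of platelets (6.60 ± 0.089) were above it. Of 7 measured sex-linked genes, Eif2s3y, on the Y chromosome, had 7.81, 7.99, 7.80 and 7.96, and the other 6, Kdm5d, Uty, Sry, Zfy1, Zfy2 and Usp9y, were above the level on no array.

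**Figure D3:**
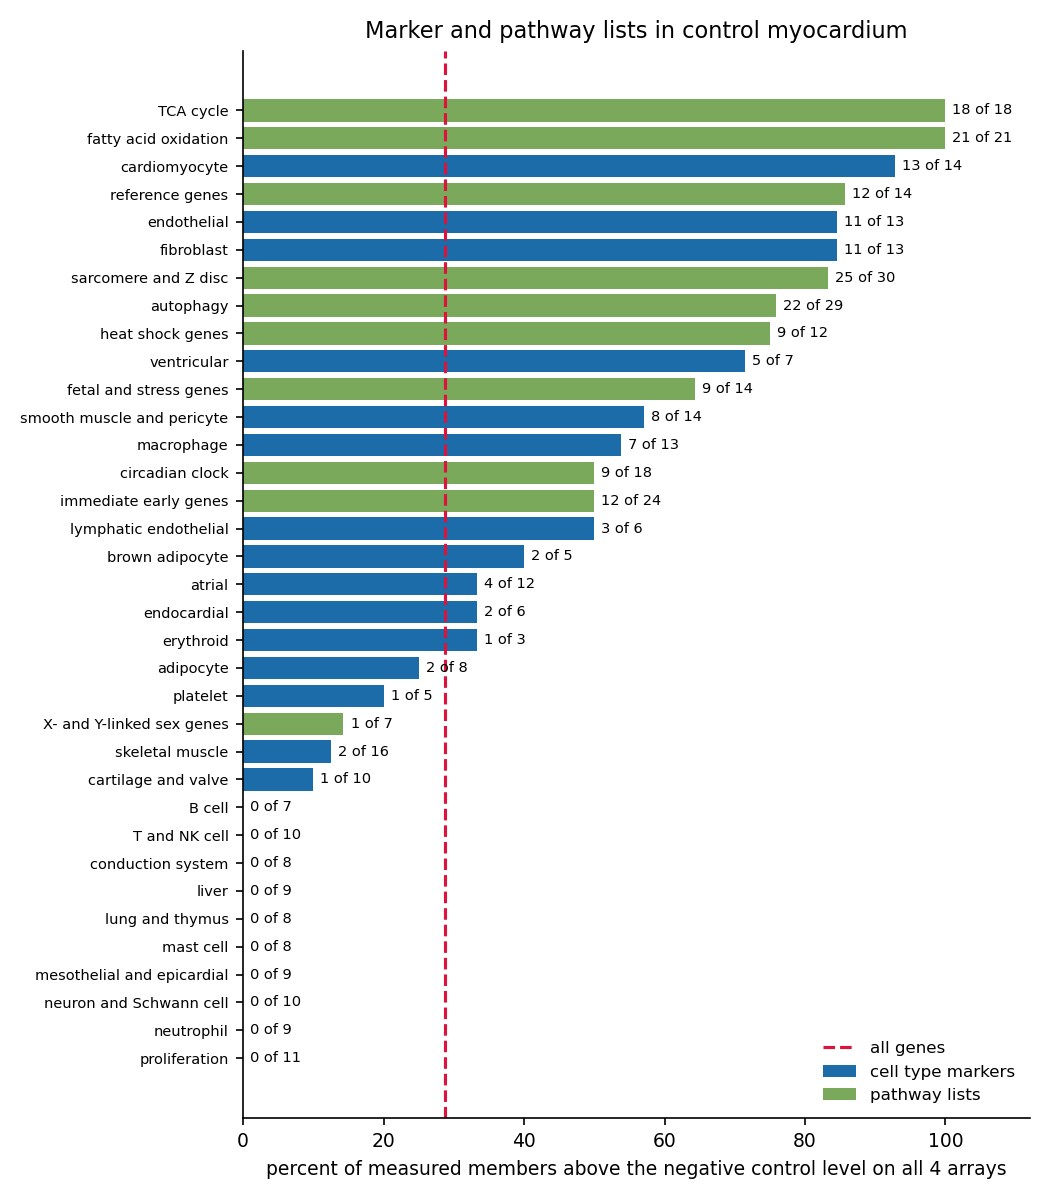
Percent of the measured members of each list (rows) above the negative control level on all 4 control arrays (bars; blue for cell type markers, green for pathway lists), with counts beside the bars and the 28.7% of all genes as a dashed line. Fatty acid oxidation and the tricarboxylic acid cycle reach 100%, and the liver list reaches 0%, since none of its 9 genes is above the level on NC2.

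The spread between the 4 mice was small for most genes and shrank with signal. Genes above the level on all 4 arrays had a median SD of 0.14, and in 90% of them the SD was at most 0.25. The median SD fell from 0.21 among the 7704 genes with a mean up to 4 to 0.077 among the 45 with a mean above 11; negative control probe sets had 0.32. The 10 steadiest of the 500 brightest genes were Ndufs3, Cd36, Cox8b, Fth1, Rpl17, Fabp3, Hacd1, Oxct1, Rpl8 and Mff. Their SDs ran from 0.010 (Ndufs3, a subunit of complex I) to 0.028 (Mff, a receptor for mitochondrial fission). Among genes often used as references in qPCR, 12 of 14 were above the level on all 4 arrays: B2m (10.73 ± 0.037), Ppia (9.27 ± 0.063), Hprt (7.49 ± 0.093), Pgk1, Ywhaz, Eef2, Eef1a1, Actb, Gapdh (10.93 ± 0.18), Sdha, Tbp and Rplp0 (8.91 ± 0.23). Gapdh was lowest on NC1, at 10.67, and highest on NC4, at 11.09. Tfrc, the transferrin receptor, had 4.71, 5.72, 5.85 and 5.89, about 1 unit lower on NC1 than on the other 3 arrays, and Gusb was above the level on none.

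**Figure D4:**
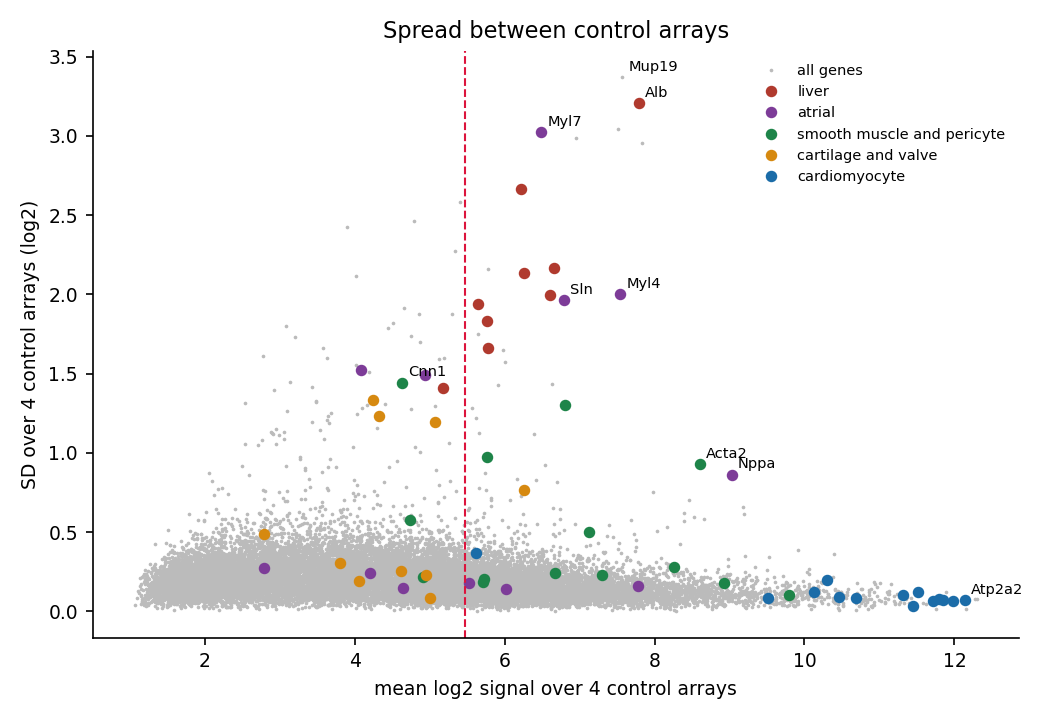
SD over the 4 control arrays (vertical axis, log2) against mean log2 signal (horizontal axis) for all 19505 genes in grey, with the members of 5 marker lists in colour, some gene names, and the mean negative control level of 5.48 as a red dashed line. Alb, Mup19 and Myl7 have SDs above 3, while the cardiomyocyte markers lie along the bottom edge at high signals.

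Against this background 195 of the 7377 genes above the level on at least 1 array (2.64%) had a range over 1 log2 unit; over all 19505 genes it was 659 (3.38%), many of them below the level, where spread is larger. The 195 were not spread evenly over the arrays. The highest array was NC1 for 65, NC2 for 14, NC3 for 91 and NC4 for 25, and the lowest was NC1 for 28, NC2 for 132, NC3 for 5 and NC4 for 30. For 71 genes the range exceeded 2, and of these 56 were highest on NC3 and 15 on NC1, with 0 on NC2 or NC4. Of the 195 genes, 143 were in none of the lists. Without NC1 the count was 127 and without NC3 it was 129.

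Genes of the liver had the widest differences of the data set. Albumin (Alb), the main plasma protein made by the liver, had 7.37, 3.53, 11.02 and 9.23: NC3 was highest, NC4 next, NC1 lower and NC2 below the level. The major urinary proteins, pheromone carriers that mice make in the liver, had the same order of arrays, with Mup19 at 6.97, 3.14, 10.95 and 9.19 and Mup2 at 6.53, 3.73, 10.66 and 9.11. All 9 Mup genes had a range over 1 and 7 were above the level on at least 1 array; these genes are nearly identical, so probes may be shared and their values are not independent. Of the 30 genes with the largest SD, 26 were both highest on NC3 and lowest on NC2. They are Alb, Mup2, Mup3, Mup9, Mup19, Mup20, Mup21, Mup22, the protease inhibitors Serpina1a, Serpina1b, Serpina1c, Serpina1d and Serpinc1, the fibrinogen chains Fga and Fgg, the apolipoproteins Apoa2 and Apoc1, transthyretin (Ttr), Ahsg, Fabp1, Pigr, Kap, and the enzymes Cyp2e1, Cyp3a11, Akr1c6 and Car3. Of the other 4, Pzp (3.15, 3.32, 7.28 and 4.87) was also highest on NC3, and Myl7, Myl4 and Sln were highest on NC1.

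The liver list gave the same picture but is no separate support. Apart from Apoa1 and Fgb, its genes were among those just named for the largest SDs. Its 9 genes (Alb, Apoa1, Apoa2, Ttr, Serpina1a, Fgb, Cyp2e1, Mup3 and Ahsg) had a mean of 5.44 on NC1, 3.91 on NC2, 8.82 on NC3 and 6.66 on NC4. All 9 were highest on NC3 and lowest on NC2, all 9 had a range over 1, and 0 were above the level on all 4 arrays. Apoa2 had 5.74, 4.56, 9.25 and 6.86, Ttr 5.55, 4.48, 9.46 and 7.17 and Cyp2e1 5.72, 3.54, 8.03 and 5.78. On NC2 every gene of the list lay below the level, from 3.32 (Ahsg) to 4.56 (Apoa2). Kap, an androgen-regulated protein known from the kidney, had 2.93, 2.92, 6.32 and 5.63, above the level on NC3 and NC4. No label says how the tissue was freed of blood or neighbouring organs, and the part of liver RNA in these values was not tested. Against the range of 4.91 of the liver mean, the cardiomyocyte mean had a range of 0.23, with 10.63, 10.72, 10.77 and 10.86; both means were higher on NC3 and NC4 than on NC1 and NC2.

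Atrial genes were uneven in another way, being highest on NC1. The 12 measured atrial markers had means of 7.08, 5.23, 5.98 and 4.99, and 6 had a range over 1: Myl7, Myl4, Sln, Nppa, Dkk3 and Mybphl. All 6 were highest on NC1 and lowest on NC4, while over all genes 3.38% had a range over 1. Myl7 was above the level on NC1 and NC3 only, and Dkk3, a secreted protein enriched in atria, had 7.05, 3.95, 4.96 and 3.82, above it on NC1 alone. The other 6 had ranges under 1. Of these Myl1 (7.96, 7.87, 7.70 and 7.60), Gja5 and Bmp10, a growth factor of the right atrium (3.18, 2.70, 2.74 and 2.52), had the same highest and lowest array over ranges of 0.36, 0.35 and 0.65. Kcna5 was highest on NC3, at 6.00, 5.85, 6.20 and 6.01, and Nr2f1 and Nr2f2 on NC2. Bmp10, Gja5 and Nr2f1 were above the level on no array. The ventricular list showed no such difference: its 7 genes had means of 7.68, 7.85, 7.65 and 7.77, and 5 (Myl2, Myl3, Irx3, Irx4 and Kcnip2) were above the level on all 4 arrays. The part of atrial tissue in these values was not tested.

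The 10 genes whose centred and scaled values over the 4 arrays lay nearest to those of Myl7, among the 195, were C4b, Ecrg4, Myl4, Pdlim3, Sln, Fmod, Prg4, Thbs1, Cytl1 and Prelp, at Euclidean distances of 0.055 to 0.45. With 4 points such likeness is a description only. C4b, a complement protein, had 6.92, 5.98, 6.54 and 5.87, Ecrg4, a secreted peptide, had 5.96, 3.03, 4.93 and 2.85, and Prelp, a leucine-rich matrix protein, had 7.09, 5.86, 6.66 and 6.11. In each case NC1 was highest and NC3 next, but C4b spanned little more than 1 unit where Myl7 spanned over 6.

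Contractile genes of smooth muscle were also highest on NC1. Tagln (transgelin) had 8.62, 5.52, 6.54 and 6.57, Cnn1 (calponin) 6.67, 3.28, 4.24 and 4.32 and Lmod1 5.58, 4.59, 4.32 and 4.45, beside Acta2, Myh11 and Myl9 above. Of the 14 markers of smooth muscle and pericytes, 6 had a range over 1, and 5 of these were highest on NC1; the sixth, Vtn, had 6.68, 6.81, 7.80 and 7.21 and was highest on NC3. Over all genes 3.38% had a range over 1. The list means were 7.23, 6.37, 6.70 and 6.83. Some pericyte markers were instead lowest on NC1: Rgs5 had 7.91, 8.23, 8.32 and 8.60, Pdgfrb 6.40, 6.58, 6.75 and 6.96 and Abcc9 8.72, 8.83, 9.09 and 9.06. The pericyte marker Cspg4 was lowest on NC3, and Smtn was lowest on NC2. Rgs5, Pdgfrb, Abcc9, Cspg4, Des and Smtn were above the level on all arrays. Without NC1, 2 of the 14 markers kept a range over 1, Tagln and Cnn1.

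Some genes of cartilage, tendon and valve matrix were also highest on NC1. Of 10 measured, 5 had a range over 1, and these 5 were highest on NC1: Chad (6.08, 3.46, 4.35 and 3.10), Comp (6.70, 4.08, 5.21 and 4.28), Fmod (5.83, 3.72, 4.77 and 3.01), Prg4 (7.18, 5.88, 6.53 and 5.42) and Hapln1, whose signals stayed below the level. Chad, Comp and Fmod were above the level on NC1 alone, and Prg4 on all 4. The cartilage genes Acan, Col2a1 and Sox9 were instead lowest on NC1, with ranges of 0.16 to 0.51, and like Cnmd were above the level on no array. The share of all genes with a range over 1 was 3.38%. The list means were 5.15, 4.30, 4.63 and 3.97. The means of the atrial, smooth muscle and matrix lists thus had the same highest array, though not all their members did. Other list means were highest on NC1 too, among them the endocardial (5.64, 5.17, 5.49 and 5.03) and fibroblast (7.66, 7.14, 7.37 and 7.22) means. The part of other tissue in these values was not tested.

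**Figure D5:**
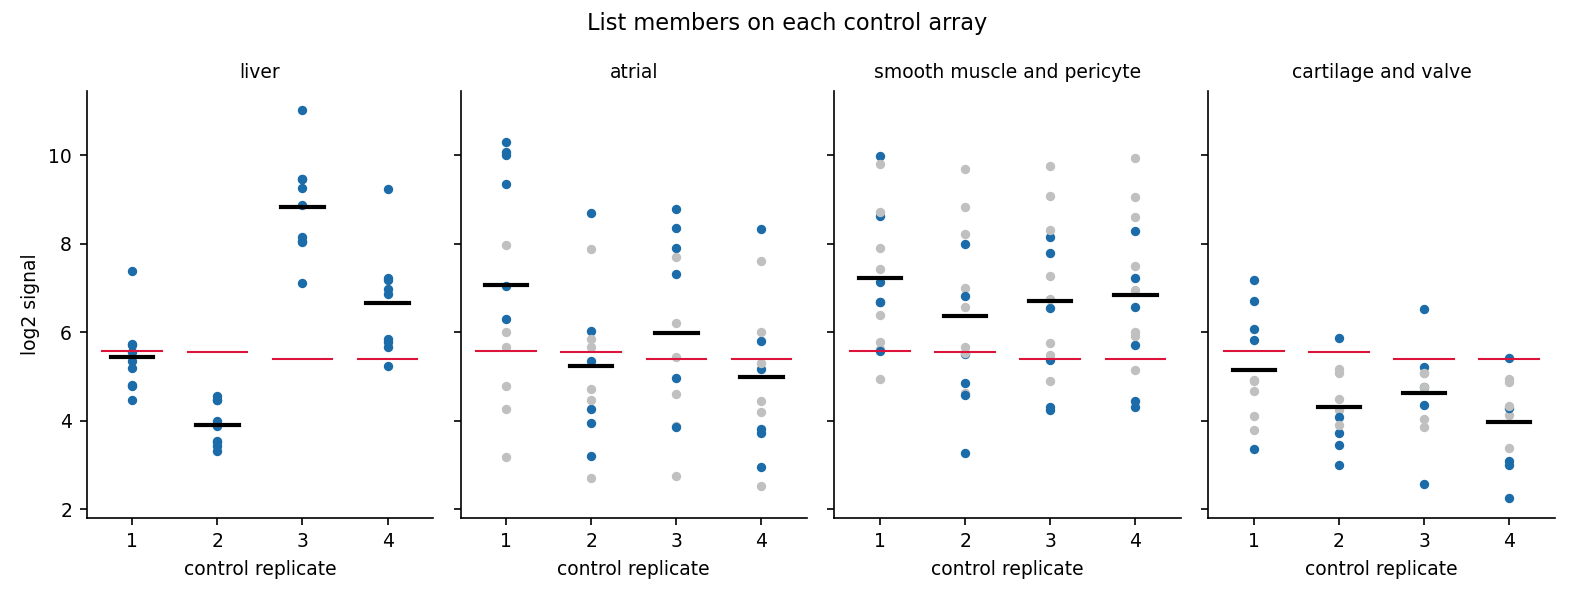
Log2 signals (vertical axis) of the members of 4 marker lists (panels) on control replicates 1 to 4 (horizontal axis); blue points are members with a range over 1, grey points other members, black bars the list mean on each array, and red lines the negative control level of that array. The liver mean is highest on NC3 (8.82) and lowest on NC2 (3.91), and the atrial, smooth muscle and cartilage means are highest on NC1.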

How the data were processed

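Gene expression was measured in mouse myocardium on single-colour Affymetrix arrays. Per the labels' protocols, RNA was isolated with Trizol, and 6 micrograms per sample served to prepare biotinylated cRNA. What the authors deposited is a table of log2 values with a row for each probe set. RMA, named in the submitters' processing notes, corrects background, makes the distributions of all arrays alike by quantile normalization and summarises each probe set over its probes. The scale was taken as log2 because all values lie where log2 array signals usually do. The version of RMA, the genome build and the chip description file are not given in the sources used here. RMA compresses differences near background.

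Of 29129 probe sets, 6923 were controls (5222 negative, 1324 positive, 377 others). Of the 22206 transcript probe sets, 19572 had 1 gene symbol and 2634 had none; the 19572 were matched by Entrez ID to RefSeq genes of GRCm38.p6, which changed 0 symbols. They named 19505 genes, and for the 55 with several probe sets the one of highest mean over all 12 arrays was used. Promoter windows came from RefSeq (GRCm38.p6). Means, SDs and counts were computed in Python 3.11.15 with pandas 2.3.3 and numpy 2.4.6 after the scripts were tested on simulated data; no test between groups was made, and with 4 arrays each SD is itself imprecise. That the 4 arrays are separate mice rests on the series design.

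Genes were named by rule: the 30 of highest mean, members of the lists (in full where above the level on all 4 arrays or with a range over 1 log2 unit, otherwise as examples or counts), the 30 of largest SD among genes above the level on at least 1 array, the 10 of smallest SD among the 500 brightest, and the 10 nearest to Myl7. Krtap17-1 and the genes under Other observations were named after their values were seen. The genes, lists and thresholds were chosen with earlier results of these data known.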

Additional observations from a re-analysis of the deposited data

Results flagged for a closer look

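The signals of the genes named in the text and 6 list means, 522 in all, were examined. The search was for 1 array lying apart from the other 3, and 26 genes were found. Chance gives about 1 in 20, so 26 of 522 is about the number that chance alone would give. Some of the genes examined had also been named for their spread or after their values were seen. Most of the 26 were small differences. NC1 was apart as the lowest for Acadm (8.99), Echs1 (9.51), Sucla2 (6.26), Atg9a (7.07), Mff (9.16), Mdh2 (9.57) and Tfrc (4.71), and as the highest for Acta2 (9.99), the smooth muscle actin. NC2 was apart as the lowest for Ankrd1 (9.33), Mef2c (7.43), Sqstm1 (9.09), Tsc22d3 (6.12) and Atg14 (4.93), and as the highest for Cox6a2 (12.08), Cycs (11.33), Mt1 (9.87), Myh13 (5.33), Nppc (4.57), Agtr2 (3.31) and Zfy1 (1.90). NC3 was apart as the lowest for Rpl8 (9.26) and Lcn2 (2.61) and the highest for Elovl3 (5.11), and NC4 as the lowest for Mas1 (2.83) and the highest for Ankrd2 (4.25) and Il6 (1.76). Atg14, Myh13, Nppc, Agtr2, Zfy1, Lcn2, Elovl3, Mas1, Ankrd2 and Il6 were below the negative control level on every array. Of the 26, only Acta2, Tfrc, Tsc22d3, Lcn2 and Elovl3 had a range over 1 log2 unit.

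Of the 2634 transcript probe sets without a gene symbol, which enter no description above, 597 (22.7%) were above the negative control level on all 4 arrays. The brightest of them had a mean of 12.44, and 2 were brighter than Mb, the brightest named gene.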

How the results depend on the processing

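No paired analysis was possible because the results come from 1 group and no test. The background threshold mattered most. At the 99th percentile of the negative controls the genes above the level on all 4 arrays fell from 5596 to 866, those of the paralog families from 150 to 71 and those of the marker and pathway lists from 203 to 99; at the 90th percentile they were 8335, 194 and 244. Families with exactly 1 member above the level numbered 20, 28 at the 99th percentile and 13 at the 90th. Taking the mean over arrays instead of every array gave 6455 genes.

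Leaving out each array in turn gave 5626 to 5874 genes above the level, 29 to 30 of the 30 brightest genes in common with the full ranking, and 127 to 158 genes with a range over 1 in place of 195, with 127 without NC1 and 129 without NC3. Without the filter on low signals that count was 659, and with arrays centred on their medians 201. All 9 liver genes kept a range over 1 without any single array. The smooth muscle and pericyte list had 2 to 6 such genes, with 2 of its 6 left without NC1; the atrial list had 4 to 6 and the cartilage and valve list 4 to 5. Averaging all probe sets of a gene moved the means of Egr3 (to 4.94) and Rora (to 5.40) by over 1 SD among the 516 genes named, both below the mean negative control level. Of 245 list counts under these settings, 31 moved by more than 1.5 times, 18 of them at the 99th percentile, where autophagy fell from 22 to 7, immediate early genes from 12 to 1, endothelial and fibroblast markers from 11 to 3 each, clock genes from 9 to 0 and macrophage markers from 7 to 0. Of the 214 that did not, 64 were counts of 0 that stayed 0.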

Other observations

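Further genes outside the lists were among the 195 genes with a range over 1 and were chosen here after their values were seen. Mgp, an inhibitor of calcification in vessel walls and cartilage, had 10.10, 8.62, 9.20 and 8.80 on NC1 to NC4, and the proteoglycan Bgn 8.48, 7.10, 7.62 and 7.55. Vim, the intermediate filament of mesenchymal cells, had 9.25, 7.82, 8.41 and 8.07, and the actin crosslinker Flna 9.50, 8.14, 8.58 and 8.43. All 4 were highest on NC1 and lowest on NC2 and were above the negative control level on every array.

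Other genes outside the lists were lowest on NC2. Fkbp5 and Tsc22d3 were closer together on NC1, NC3 and NC4, while for Ddit4 NC4 lay between NC2 and the other arrays. Fkbp5, a co-chaperone of steroid receptors, had 6.35, 4.88, 5.93 and 5.77, Tsc22d3, a leucine zipper protein, had 7.23, 6.12, 7.27 and 7.16, and Ddit4, an inhibitor of mTORC1 signalling, had 6.74, 5.55, 6.66 and 6.13. They were also picked after their values were seen, and no test was made.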
